A study of Mus musculus with 10 samples.

Results

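Regions of open chromatin that were present in mouse embryonic stem cells, absent from fibroblasts, away from protein-coding gene ends and packed close together on the chromosome are described here. Overlapping peaks of all 10 libraries were merged into 208851 regions. Of these, 33275 had a peak in both embryonic stem cell (ESC) libraries and in neither mouse embryonic fibroblast (MEF) library, or 15.9% of all regions, and 31136 of them lay more than 1 kb from both ends of every protein-coding gene. These distal stem cell regions were joined into chains by a limit on the gap between neighbours, such that the widest gap joined was 12487 bp and the narrowest left apart beside a chain 12520 bp. Chains of 4 or more held 1998 regions in 423 chains, which is 6.42% of the distal stem cell regions and 0.957% of all regions. These 1998 regions are called chain members below, and the 29138 distal stem cell regions that stood alone or in chains of 2 or 3 are called unchained. The members were chosen by the presence of ESC peaks, the absence of MEF peaks and the distance between regions, so every ESC and MEF value of a member is a description. The DAY3, DAY6 and DAY9 peaks were not used in the choice, except that they entered the merging.

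The assay was ATAC-seq, in which a transposase inserts sequencing adapters into accessible DNA, with 2 libraries in each of 5 groups, called stages. They were fibroblasts, DAY3, DAY6 and DAY9 on the way to induced pluripotent cells, and ESC. MEF, DAY3, DAY6 and DAY9 cells had the strain background C57BL/6 x 129 and the genotype OKSM Col1a1/M2rtTA ROSA26, that is, a cassette for Oct4, Klf4, Sox2 and c-Myc that sits at Col1a1 and is switched on by doxycycline through an activator at Rosa26. MEF cells were kept in MEF medium with no doxycycline and were not sorted. DAY3, DAY6 and DAY9 cells were kept for 3, 6 and 9 days in ESC medium with 1 ug/ml doxycycline and 50 ug/ml ascorbic acid. DAY6 and DAY9 cells were sorted for SSEA+, a surface marker of cells on the way to pluripotency, and DAY3 cells were not, so the later days and the sort cannot be told apart. ESC were the line V6.5 of the same strain background, without the cassette, unsorted, grown on irradiated feeder cells. They are a separate line and not a later time of the same cells, so "before ESC" below means at DAY3, DAY6 or DAY9. All libraries carry 1 batch name. Whether the 2 libraries of a stage came from separate cultures is not given in the sources used here, so the spread between them may be technical. The sample is bulk chromatin, so fewer cells with a region open and less opening per cell cannot be told apart.

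The peak lists held between 45497 and 88980 peaks, the fewest at DAY3 and the most in ESC. The DAY3 libraries differed from each other by 1.33 times counting noise and the DAY9 libraries by 1.42 times, in pileups recovered from the lists, against 5.56 in MEF, 3.61 in DAY6 and 8.11 in ESC. The DAY3 pair and the DAY9 pair thus agree within 2 times the sampling noise, and each was counted as 1 sample in the tests. Of the pluripotency genes on the list used below, 14 had a promoter window in the reference table. Windows with a peak numbered 6 and 8 in MEF and 14 and 13 in ESC. Those of Nanog, Nr0b1 and Tdgf1 had one in all DAY9 and ESC libraries and in no earlier one. By contrast, those of Klf2, Klf4, Sall1, Sox2 and Tfcp2l1 had one in every library, both MEF libraries included. Pou5f1 had one in MEF replicate 2 and in all DAY3, DAY6 and DAY9 libraries, but not in ESC replicate 2. Of 9 promoters of mesenchymal and fibroblast genes, 9 had a peak in both MEF libraries and 6 and 7 in ESC, where Postn and Prrx1 had none.

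Distal regulatory elements act on promoters at a distance, and many of those that drive cell identity genes lie in groups along the chromosome. Joining elements across a fixed gap is the usual first step when such groups are sought. Pluripotent cells are known for groups of this kind at the genes of their own transcription factors, and at the miR-290 and miR-302 clusters of microRNAs. Accessibility alone does not tell an enhancer from another kind of open element, and no histone mark was analysed here.

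Of the 423 chains, 33 had a microRNA hairpin within 100 kb. The share for unchained regions was not worked out, so this count is a description. Among them, 3 chains lay within 100 kb of clusters that are known for pluripotent cells or for cell growth. Mature sequences of these clusters are shown because chains at 2 separate loci lie within 100 kb of microRNAs with 1 shared seed. The seed, bases 2 to 8, is in capitals, and the sequences run 5′ to 3′ as RefSeq gives them for GRCm38.p6. The reference table held mmu-miR-302a-5p and mmu-miR-292a-5p but no 3p sequence of either, so counts cover listed sequences only. The seed AAGUGCU stood in 5 of the listed mature microRNAs, 3 from the mir-290 to mir-295 cluster on chromosome 7 and 2 from the mir-302 and mir-367 cluster on chromosome 3.
mmu-miR-291a-3p: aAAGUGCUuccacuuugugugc
mmu-miR-294-3p: aAAGUGCUucccuuuugugugu
mmu-miR-295-3p: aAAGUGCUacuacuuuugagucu
mmu-miR-302b-3p: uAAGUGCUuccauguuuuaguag
mmu-miR-302d-3p: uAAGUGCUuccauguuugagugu
The seed AUUGCAC was shared in the same way between the chromosome 3 cluster and the mir-106a to mir-363 cluster on chromosome X, in 3 mature microRNAs.
mmu-miR-367-3p: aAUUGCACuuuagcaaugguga
mmu-miR-363-3p: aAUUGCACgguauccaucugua
mmu-miR-92a-3p: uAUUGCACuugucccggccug

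The chain beside the mir-290 to mir-295 cluster was among the earliest of all. It held 7 members at chr7:3192935-3214095, on build mm10 as all coordinates here, and ended 4.531 kb before the hairpins, with Nlrp12 as the nearest protein-coding gene. Members with a peak numbered 4 and 4 in the DAY3 libraries, 5 and 5 at DAY6, 5 and 5 at DAY9 and 7 and 7 in ESC, so the libraries of each day had the same count. No other chain had 4 members with peaks in both DAY3 libraries. At the member at chr7:3211597-3212600 the authors' fold enrichment, the height of a peak's summit over its local background, was 9.17 and 7.36 in the DAY3 lists, 9.46 and 12.3 at DAY6, 9.54 and 10.9 at DAY9 and 4.81 and 6.18 for ESC. Its ESC folds were the lowest of the 4 stages with a peak, although depth differs between the lists. The other 2 members, at chr7:3195935-3196241 and chr7:3198868-3199236, had no peak at any day and ESC folds of 2.04 to 2.82.

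The chain nearest to the mir-302 and mir-367 cluster overlapped Ank2, an adaptor of the membrane skeleton, at chr3:127444171-127489648 and lay 55.58 kb from the hairpins. Of its 8 members, 2 and 2 had a peak at DAY3, 4 and 3 at DAY6, and 4 and 5 at DAY9. The chain beside the mir-106a to mir-363 cluster had 6 members at chrX:52744300-52760893, 1.733 kb from the hairpins. None had a peak at DAY3 and 1 in each library at DAY6 and DAY9. The DAY6 libraries had their peaks at different members, so no member had a peak in both, and 1 member had it in both DAY9 libraries. All 6 had a peak in both ESC libraries. The 3 chains were singled out after their values were seen.

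Transcription start sites were also found inside members, since distance was measured only to the outer ends of protein-coding genes. Of the RefSeq promoter windows, 250 bases before to 50 after a start, 38 overlapped a member. They belonged to 35 genes, 23 of them long noncoding RNA (lncRNA) genes and 12 protein-coding genes with a start inside the gene body, and touched 35 members (1.75%, against 1.89% of unchained regions). The 250 bases before the start are shown for 4 of them, chosen after their values were seen to represent an inner start of a pluripotency gene, a metabolic gene and 2 lncRNA genes. Capitals mark a match to any of the 4 motifs given after the sequences, on either strand, and each sequence is written on the strand of its gene, 5′ to 3′, from RefSeq for GRCm38.p6.
Nr5a2 (chr1:136953631-136953880, minus strand): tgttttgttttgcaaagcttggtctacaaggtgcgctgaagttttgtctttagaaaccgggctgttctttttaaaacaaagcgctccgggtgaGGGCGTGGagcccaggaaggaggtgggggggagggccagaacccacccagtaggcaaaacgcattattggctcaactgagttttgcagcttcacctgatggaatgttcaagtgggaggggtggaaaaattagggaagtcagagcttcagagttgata
Bcat1 (chr6:145048813-145049062, minus strand): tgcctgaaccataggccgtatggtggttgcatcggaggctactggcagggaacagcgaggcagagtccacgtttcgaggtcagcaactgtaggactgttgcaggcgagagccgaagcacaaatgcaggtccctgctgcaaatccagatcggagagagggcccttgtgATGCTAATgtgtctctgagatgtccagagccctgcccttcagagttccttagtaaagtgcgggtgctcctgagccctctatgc
1700017J07Rik (chr2:168978019-168978268, plus strand): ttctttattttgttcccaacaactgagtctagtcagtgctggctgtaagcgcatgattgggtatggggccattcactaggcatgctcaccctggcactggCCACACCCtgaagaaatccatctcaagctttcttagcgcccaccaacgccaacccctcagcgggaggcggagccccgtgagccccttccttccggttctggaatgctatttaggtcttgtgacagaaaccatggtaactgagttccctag
Platr10 (chr3:75655732-75655981, minus strand): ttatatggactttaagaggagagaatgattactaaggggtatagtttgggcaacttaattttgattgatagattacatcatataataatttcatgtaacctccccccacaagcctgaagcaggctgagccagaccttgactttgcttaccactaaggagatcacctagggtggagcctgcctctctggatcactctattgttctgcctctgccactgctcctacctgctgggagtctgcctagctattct

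The member with the inner start of Nr5a2, an orphan nuclear receptor of pluripotent cells, had folds of 6.77 and 8.41 at DAY6, 6.49 and 7.34 at DAY9 and 3.66 and 2.65 in ESC, and a peak of 3.35 in 1 DAY3 library. The member at Bcat1, an enzyme of branched-chain amino acid breakdown, had a peak from DAY3 on, with folds of 3.64 and 3.90 at DAY3, 4.46 and 4.56 at DAY6, 2.83 and 3.94 at DAY9 and 6.90 and 4.28 in ESC. At 1700017J07Rik the first peaks came at DAY6, at 4.49 and 3.91. At the lncRNA gene Platr10 they came at DAY9, at 3.44 and 3.37. The 4 members thus had their first peaks in both libraries at DAY3, DAY6, DAY6 and DAY9. Of the 38 windows in members, 21.1% held the Krüppel-like factor motif GGGNGTGG, 2.63% the octamer motif ATGCNAAT, 7.89% the nuclear receptor motif AAGGTCA and 5.26% the AP-1 motif TGANTCA, each searched on both strands. Over all 32851 windows the shares were 17.6%, 3.15%, 4.72% and 7.81%. With 38 windows each share rests on 8, 1, 3 and 2 windows, and a match is a run of letters, not a bound site.

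Most chains were short. There were 255 chains of 4 members, 98 of 5, 36 of 6, 19 of 7 and 15 of 8 or more, the longest with 17. The median chain spanned 22219 bp (5149 to 83188), the median gap between members was 5255 bp, and members covered a median of 14.5% of the span. With only ESC replicate 2 standing for ESC there were 1517 chains, and with only ESC replicate 1 there were 1761, so the count rests on both ESC libraries. Just outside the rule lay 848 chains of 3 with 2544 regions. The member nearest to a gene end lay 1007 bp away, against 1000 bp for the farthest region left out. The same rule with ESC and MEF exchanged gave 22417 distal fibroblast regions, of which 1211 (5.40%) stood in 272 chains.

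The spans were not free of fibroblast peaks. They held 1106 other regions, 439 of them with a MEF peak, 385 in 1 ESC list and no MEF list, and 267 in neither. A MEF peak lay inside the span of 242 chains (57.2%), while 181 had none. By chromosome, the share of distal stem cell regions that stood in chains ran from 4.02% on chromosome 19 to 10.1% on chromosome 10, which carried 42 chains. It was 4.83% on X, and no member lay on Y among its 88 distal regions.

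Chain members had slightly lower ESC values than unchained regions. The length under ESC peaks is the sum over all ESC peaks in a merged region, and the fold is that of the highest. The median length under ESC peaks was 507 bp in members and 542.5 bp in unchained regions. The median fold was 5.35 and 4.28 in the ESC libraries for members, and 5.80 and 5.01 for unchained regions. Members lay nearer to a protein-coding gene end, at a median of 26.0 kb against 35.7 kb. They lay inside a protein-coding gene in 44.3% against 41.3%, and inside a lncRNA gene in 15.2% against 9.76%. Since crowding is what the rule asks for, these values describe the members and no test was made of them.

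More than 4 in 10 chain members were open at DAY3, DAY6 or DAY9, and the share with a peak was highest at DAY9 among the days. A peak was present in 13.9% and 13.6% of members in the DAY3 libraries, in 35.9% and 31.3% in the DAY6 libraries and in 48.5% and 48.8% in the DAY9 libraries. As samples, the shares were 13.8% at DAY3 (1 sample), 33.6% ± 3.22 (SD, n = 2) at DAY6 and 48.6% at DAY9 (1 sample), so the 3 stages did not overlap. From DAY3 to DAY9 the share was 34.9 percentage points higher. Over these 4 samples an exact permutation test of Jonckheere and Terpstra's trend statistic, two-sided, gave p = 0.167, the smallest that its 12 arrangements allow, so the trend could not pass 0.05. With 6 libraries counted separately it gave p = 0.0222 in the same exact test. List length moved with the stage, from 45497 peaks at DAY3 to 78308 at DAY9. The share of the numbers in the peak names that were still listed was 60.3% in both libraries at DAY3, 64.6% and 58.2% at DAY6, and 75.9% and 75.8% at DAY9. The part of this filtering in the trend was not tested. With all lists at the length of the shortest, the difference was 28.3 points.

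Unchained regions had fewer peaks in every sample. Their shares were 10.9% at DAY3, 27.9% ± 1.83 (SD, n = 2) at DAY6 and 41.1% at DAY9. Members were higher by 2.87 points at DAY3, by 6.70 and 4.74 points in the DAY6 libraries and by 7.51 points at DAY9, a mean of 5.45 points, in 4 of 4 samples. The two-sided exact sign-flip permutation test gave p = 0.125, the smallest its 16 arrangements allow, and p = 0.03125 with 6 libraries counted separately. Within quartiles of the length under ESC peaks, the mean difference was 5.64 points. With lists of equal length the DAY3 difference turned to -1.54 points, and the mean was 3.23 points. Without ESC replicate 2 the mean was 2.88 points.

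**Figure D1:**
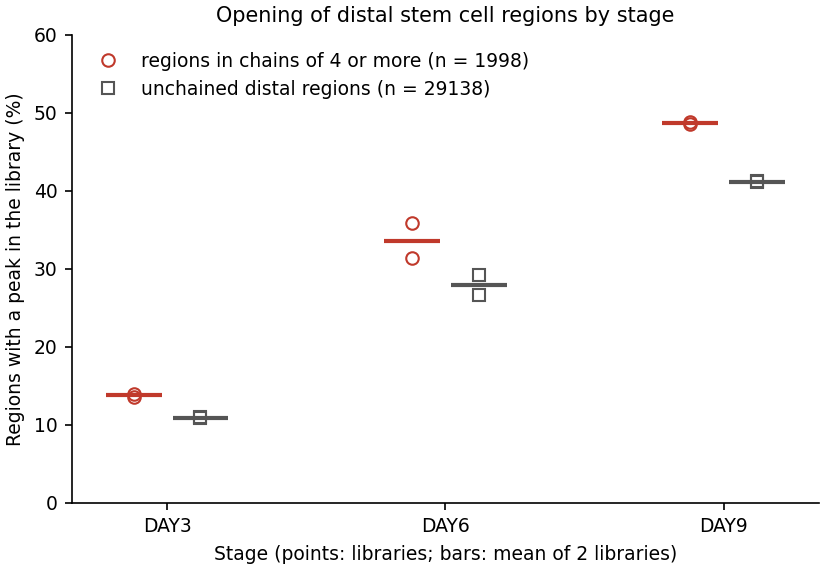
Share of regions with a peak (%) in each DAY3, DAY6 and DAY9 library, for the 1998 chain members (circles) and the 29138 unchained distal stem cell regions (squares); points are libraries and bars are the mean of the 2 libraries. Members lie above unchained regions at each stage, at 48.5% and 48.8% against 41.1% and 41.2% at DAY9.

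A stricter measure, a peak in both libraries of a day, is called open below. By it 214 members (10.7%) were open at DAY3, 535 (26.8%) at DAY6 and 859 (43.0%) at DAY9, beside 8.57%, 22.1% and 36.7% of all distal stem cell regions. Over all merged regions, 5.43%, 9.46% and 16.8% were open on these days with no MEF peak. Open at 1 or more of the days were 882 members (44.1%), beside 38% of all distal stem cell regions. The first open stage was DAY3 for 214 members, DAY6 for 331, DAY9 for 337 and ESC alone for 1116 (55.9%, against 62.4% of unchained regions). No peak in any of the 6 day libraries was found for 851 members (42.6%), against 51.4% of unchained regions.

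A member once open was nearly always open later. Of the 214 members open at DAY3, 204 (95.3%) were open at DAY6 and 209 (97.7%) at DAY9. Of the 535 open at DAY6, 515 (96.3%) were open at DAY9. The corresponding shares of unchained regions were 93.1%, 95.4% and 94.9%. The earlier members had a greater length under ESC peaks. DAY3, DAY6 and DAY9 peaks entered the merging, so a region with such peaks can be wider and take in more ESC peaks. The median width was 900 bp for members first open at DAY3 and 557 bp for those open in ESC alone. The part of the merging in the ESC values was not tested. The median length under ESC peaks was 648.5 bp for members first open at DAY3, 601 bp at DAY6, 512 bp at DAY9 and 468.25 bp in ESC alone. In unchained regions the same classes had 608.5, 582.5, 525.25 and 528 bp.

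At DAY9 the open share differed most between single regions and pairs, and less among the longer chains. At that stage 34.1% of regions that stood alone were open, 40.4% of those in pairs and 41.9% of those in chains of 3. In chains of 4, 5, 6 and 7 or more the shares were 42.5%, 44.1%, 40.7% and 44.9%. From 3 to 4 members, where the rule draws its line, the DAY9 share was nearly level. At DAY3 the shares were 7.80%, 9.88%, 9.08%, 10.8%, 9.59%, 14.8% and 9.19% in the same order, with no steady order along the classes.

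**Figure D2:**
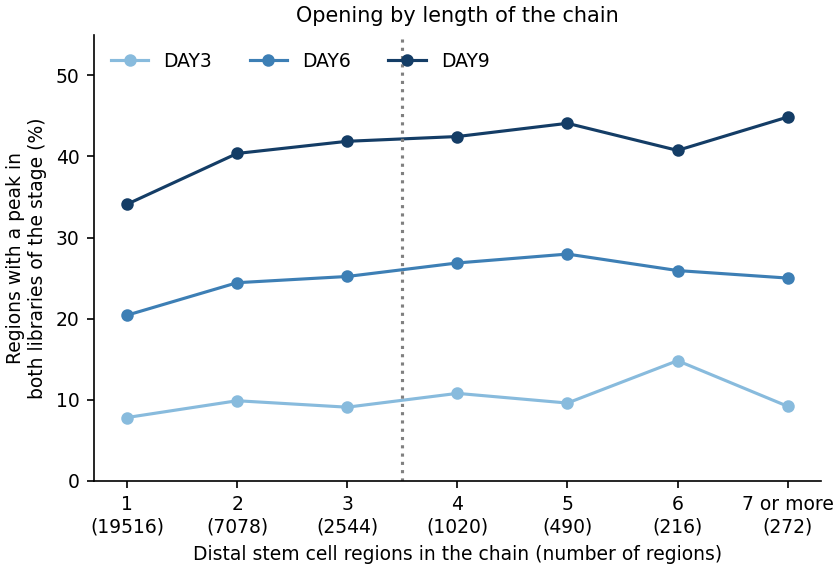
Share of distal stem cell regions with a peak in both libraries of the stage (%) against the number of regions in their chain, with the number of regions in brackets; the dotted line marks the limit of 4 regions. At DAY9 the share was 34.1% for single regions and between 40.4% and 44.9% for all longer classes.

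Before ESC, most chains had some members open and others not. At least 1 member was open in 168 chains (39.7%) at DAY3, in 304 (71.9%) at DAY6 and in 371 (87.7%) at DAY9. All members were open in 0, 1 and 15 chains at these stages. Of all members, 10.7%, 26.8% and 43.0% were open at these stages. The chain counts that members opening independently at these shares would give were not worked out. Whether opening within chains was staggered or joint was therefore not tested. The mean chain of 4.72 members had 0.506 open members at DAY3, 1.26 at DAY6 and 2.03 at DAY9. Before ESC, 357 chains had some but not all members open, 15 had all and 51 had none. A chain's members fell into 1 timing class in 51 chains, the same 51 in which all members were open in ESC alone, into 2 classes in 162, into 3 in 175 and into all 4 in 35.

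**Figure D3:**
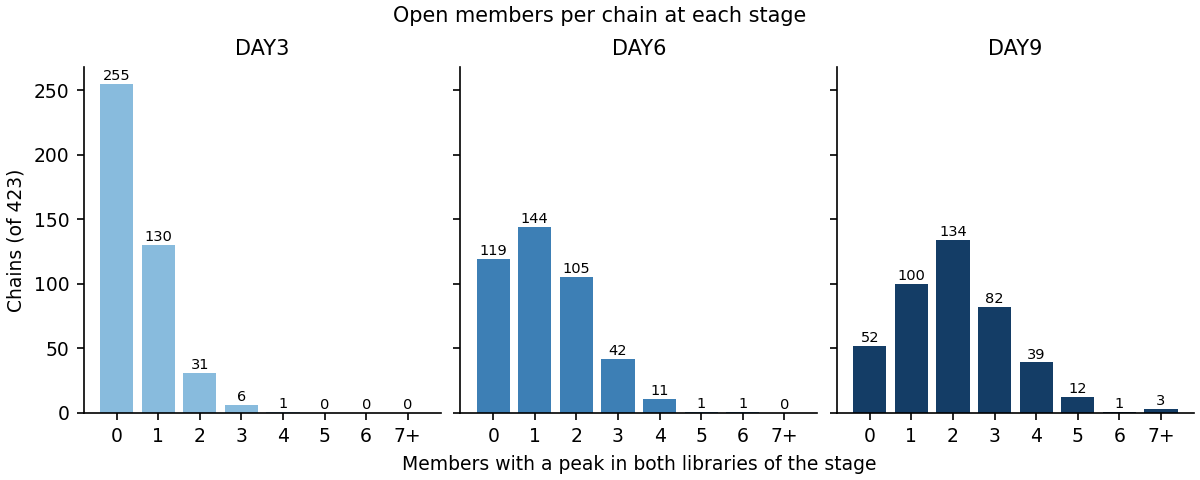
Number of chains (of 423) by the number of their members that had a peak in both libraries at DAY3, DAY6 and DAY9. Chains without an open member numbered 255 at DAY3, 119 at DAY6 and 52 at DAY9, when 2 open members was the commonest count (134 chains).

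The position in the chain made little difference. Of the 846 members at a chain's ends, 10.5% were open at DAY3, 26.2% at DAY6 and 42.2% at DAY9. Of the 1152 interior members the shares were 10.9%, 27.2% and 43.6%. The ESC values went with timing inside chains as well, with the same limit from the merging. In 271 of the 357 mixed chains (75.9%) the members open before ESC had the higher mean ESC fold, and in 260 (72.8%) the greater length under ESC peaks.

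Neighbours in a chain were in the same state at DAY9 about as often as neighbours elsewhere. Of 1575 neighbouring pairs within chains, 55.7% had both members open or both not open, and of 29540 other neighbouring pairs 58.1%. Beside an open neighbour 48.8% of chain members were open, and beside one that was not 39.0%, a difference of 9.83 points. For the other pairs the shares were 42.4% and 32.9%, a difference of 9.46 points. By gap, the difference was 15.4 points up to 2 kb, 10.4 points from 2 to 5 kb, 7.70 points from 5 kb to the limit of the chaining rule and 11.3 points beyond 200 kb. The excess was therefore present at all distances, and pairs share chromosomes and libraries, so no test was made. The near equality of chains and other pairs depended on the settings. In lists of equal length the difference was 20.8 points within chains and 12.48 outside, and in chains of 5 or more 16.5 and 9.32 points (14.5 and 8.98 without chromosome X). It was 6.90 and 10.1 points without MEF replicate 1, and 6.58 and 5.66 points without ESC replicate 2.

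**Figure D4:**
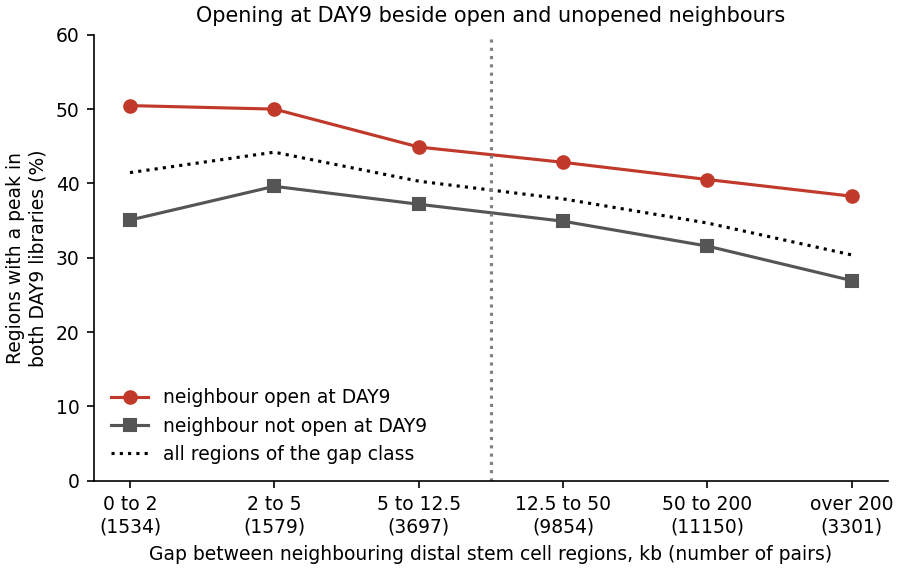
Share of distal stem cell regions open at DAY9 (%) beside a neighbour that was open (circles) or not open (squares), by the gap to that neighbour in kb, with the number of pairs in brackets; the short dotted curve gives all regions of the gap class and the vertical line the limit of the chaining rule. The circles lie above the squares in all 6 gap classes, by 15.4 points up to 2 kb and by 11.3 points beyond 200 kb.

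Some regulators of pluripotency were among the genes nearest to the chains. Each chain was given its nearest protein-coding gene, which yielded 397 of 21887 genes (1.81%). Of 24 pluripotency factors, 9 were nearest to a chain, namely Sox2, Klf4, Klf5, Esrrb, Tfcp2l1, Prdm14, Zfp42, Nr5a2 and Sall1. Of 10 Myc and chromatin factors there were 5 (Mycn, Myc, Jarid2, Tet1 and Tet2), and of 9 genes of FGF signalling and its ERK feedback 3 (Fgf4, Spry2 and Spred2). The LIF and Stat3 pathway (6 genes), the Nodal, Lefty and Otx group (6), the BMP and Id group (5) and the epithelial list (11) had 0. The mesenchymal list had 1 of 15 (Snai2), factors of other lineages 1 of 10 (Sox1) and genes of steady expression 1 of 6 (Actb). Within 100 kb of a chain lay 4.66% of all genes, 10 of 24 pluripotency factors and 3 of 9 FGF genes. So did 2 of 6 Nodal group genes (Zic2 and Smad7) and 2 of 6 genes of steady expression (Actb and Eef1a1). The Myc and chromatin list had 4 of 10, the mesenchymal list 1, other lineages 1, and the LIF, BMP and epithelial lists 0. The lists were drawn up with results of these data known and the pluripotency genes are stem cell genes by definition, so the counts are descriptions. Shares of the lists nearest to unchained regions were not worked out.

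Nearness was often not overlap. A protein-coding gene was overlapped by 236 chains (55.8%), and 25 chains lay over 100 kb from any. A gene was nearest to 2 or more chains in 23 cases, with 4 chains at Plekha5, 3 at Rbpms, and 2 each at Sox2 and Tet2. Promoters of the nearest genes were commonly open in fibroblasts already. Of the 297 nearest genes with a promoter window, 71.7% had a peak there in both MEF libraries. The share was 74.7% at DAY3, 80.5% at DAY6, 82.8% at DAY9 and, for ESC, 83.5%, beside 54.1%, 54.4%, 57.8%, 60.7% and 59.6% of all 17492 genes. The nearest genes include the 12 protein-coding genes with a promoter window in a member, Nr5a2 among them. Members were chosen by ESC peaks and no MEF peak, so part of the higher ESC share may come from the choice. The size of that part was not worked out. Of the 15 list genes with a window, 9 had such a peak in MEF and at DAY3, 15 at DAY6 and DAY9, and 14 in ESC. The 6 that had it at DAY6 and not at DAY3 were Esrrb, Fgf4, Nr5a2, Sox1, Tet1 and Zfp42. Only Nr5a2 and Sox1 of these had no promoter peak in any MEF or DAY3 library. Esrrb, Fgf4, Tet1 and Zfp42 had one in DAY3 replicate 1, and Esrrb and Zfp42 also in MEF replicate 2. Tet1 had it in both MEF libraries and lacked it in ESC replicate 2. Mycn had it in both libraries at DAY3, and in MEF in replicate 1 but not in replicate 2.

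Among the pluripotency factors, the chain at Prdm14, a repressor of FGF signalling and DNA methylation, was the most complete by DAY6. It had 7 members at chr1:13059537-13104578, 8850 bp from the gene. Members with a peak numbered 0 and 0 in MEF, 1 and 1 at DAY3, 6 and 6 at DAY6, 7 and 7 at DAY9, and 7 and 7 in ESC. The DAY3 libraries had their peaks at different members, so none was open there, and all 7 were open at DAY9. The strongest, at chr1:13084581-13085609, had folds of 8.53 and 8.45 at DAY6, 15.0 and 13.1 at DAY9 and 14.7 and 10.4 in ESC, and no peak earlier.

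Esrrb, an orphan nuclear receptor of naive pluripotent cells, was overlapped by 9 members at chr12:86464303-86504909. Their peaks numbered 0 and 0 at DAY3, 5 and 2 at DAY6 and 6 and 5 at DAY9. The DAY6 libraries thus differed more than those of the other days, and 3 members were open in ESC alone. Tfcp2l1, another transcription factor of the naive state, had 6 members at chr1:118625273-118648582, with peaks at 3 and 2 at DAY3, 2 and 2 at DAY6 and 2 and 2 at DAY9. Its 2 early members, open at all days, had ESC folds of 6.29 and 6.89 at chr1:118642268-118643241 and 13.8 and 9.51 at chr1:118647769-118648582. The other 4 were open in ESC alone, so the chain stood still from DAY3 to DAY9.

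Sox2, a cassette factor and core pluripotency gene, had 2 chains. The one whose span held the gene, with its members inside the lncRNA gene Sox2ot, had 4 members at chr3:34640528-34668865, with peaks at 1 and 0 at DAY3, 2 and 2 at DAY6 and 3 and 3 at DAY9. The one downstream had 6 members at chr3:34734786-34761702, starting 82325 bp from the gene, with peaks at 1 and 1 at DAY3, 2 and 2 at DAY6 and 2 and 3 at DAY9. In the downstream chain the member at chr3:34757325-34758298 was open from DAY3, with folds of 3.97 and 3.67, then 7.41 and 7.51 at DAY6, 7.24 and 6.81 at DAY9, and 4.40 and 3.02 in ESC. The member at chr3:34734786-34735410 had no peak at any day and folds of 12.6 and 4.96 in ESC. A large ESC fold therefore did not always go with an early peak.

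Klf5 and Klf4 encode Krüppel-like factors of the pluripotency network, and Klf4 is also in the cassette. The chain near Klf5 had 7 members at chr14:99339408-99388073, 25996 bp from the gene, with peaks at 0 and 0 at DAY3, 3 and 4 at DAY6 and 3 and 5 at DAY9. The chain near Klf4 had 4 members at chr4:55451008-55478238, 48899 bp away, with 0 and 1, 2 and 0, and 2 and 2 at the same days. At DAY6 the libraries disagreed at Klf4, where replicate 2 had no peak at any member. Zfp42, a classical marker of naive stem cells also called Rex1, had 5 members at chr8:43320554-43338895, with 0 and 0, 0 and 1, and 2 and 1. Of the pluripotency chains it had the lowest share open at DAY9, with 4 of 5 members open in ESC alone.

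Sall1, a zinc-finger protein, had 5 members at chr8:88991125-89012734, with peaks at 1 and 1 at DAY3, 3 and 3 at DAY6 and 4 and 4 at DAY9. The member open from DAY3, at chr8:88991125-88992821, had folds of 7.61 and 6.39 at DAY3 and 14.1 and 16.3 at DAY9. At Nr5a2 the 4 members at chr1:136951143-136958481 were the shortest of the pluripotency chains in span, and only the one that holds the inner start shown above was open before ESC. In these 10 chains, the number of members open at DAY9 ran from 1 of 5 at Zfp42 and 1 of 4 at Nr5a2 to 7 of 7 at Prdm14.

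**Figure D5:**
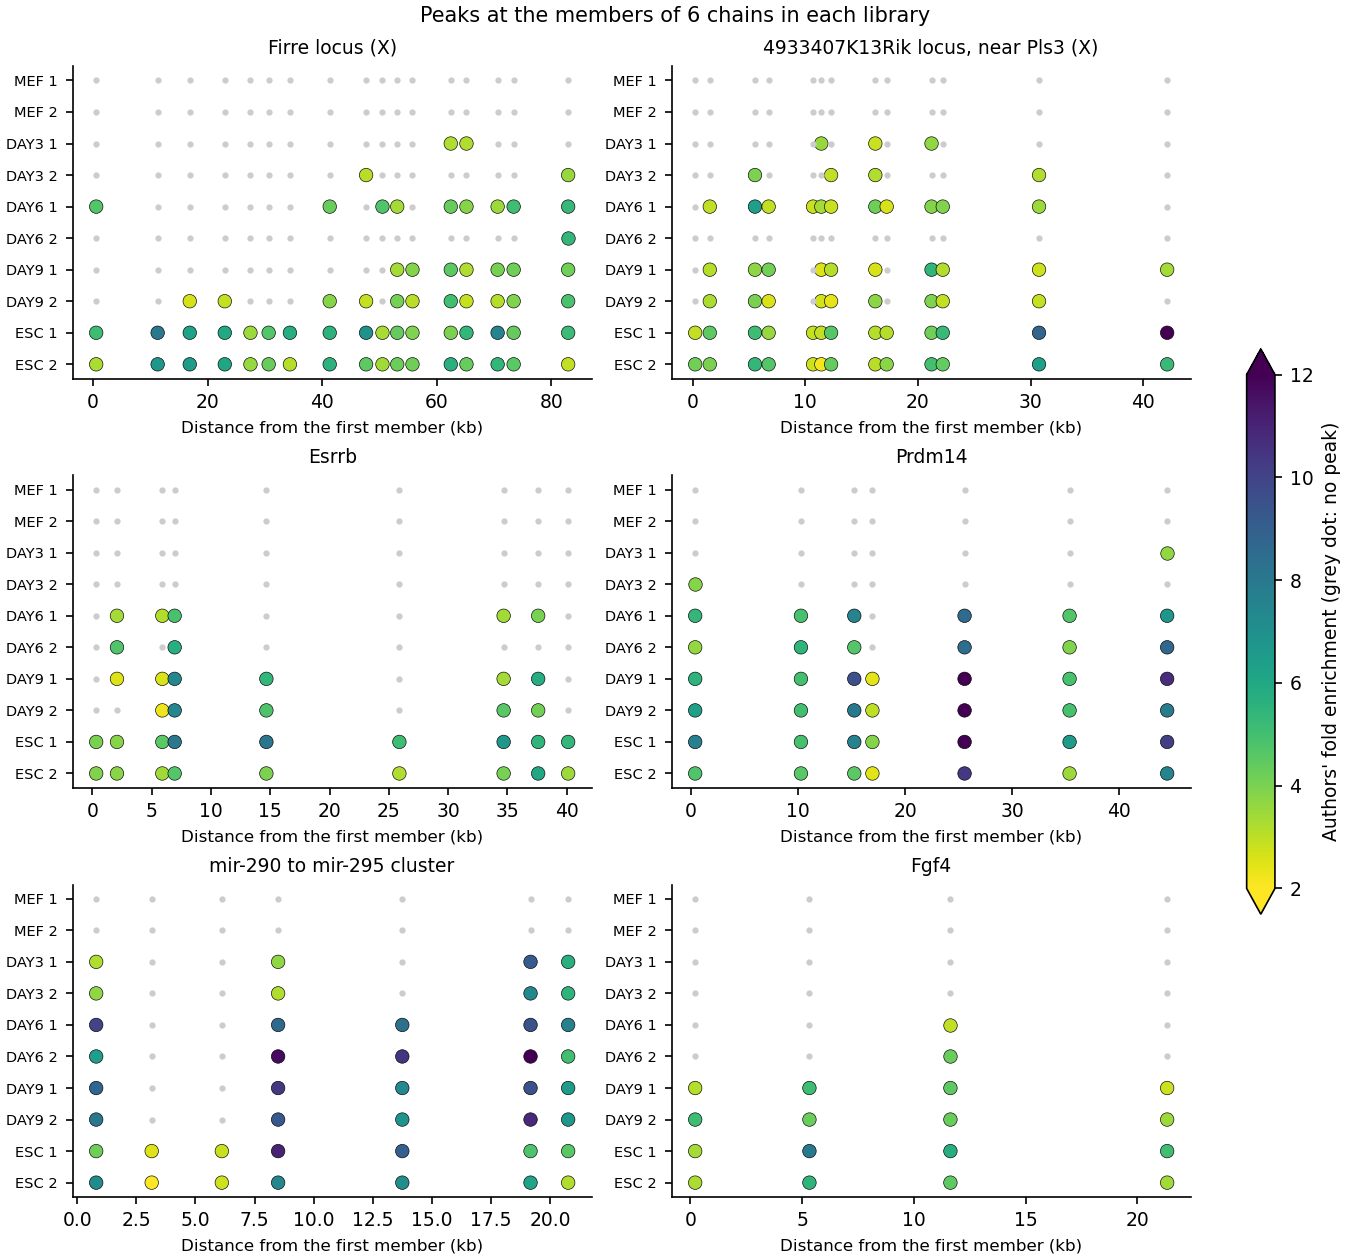
Peaks at the members of 6 chains in each of the 10 libraries, against distance from the first member (kb); coloured circles give the authors' fold enrichment and grey dots a member without a peak. All 7 members at Prdm14 and all 4 at Fgf4 have a peak in both DAY9 libraries, and at the Firre and 4933407K13Rik loci on X the DAY6 libraries differ, with 9 and 1 and with 11 and 0 members.

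In FGF signalling, which drives stem cells out of the naive state, the chain at the ligand gene Fgf4 had 4 members at chr7:144846147-144867813. Peaks numbered 0 and 0 at DAY3, 1 and 1 at DAY6 and 4 and 4 at DAY9, so 3 of the members were first open at DAY9. Spry2, an inhibitor of the pathway, lay within the span of the third largest chain, with 10 members at chr14:105851122-105901181, 1 of them inside the gene. Its peaks numbered 4 and 3 at DAY3, 4 and 4 at DAY6 and 4 and 5 at DAY9. They were not always at the same members, and 2 members were open at DAY3, 3 at DAY6 and 4 at DAY9. The 4 members open by DAY9 were neighbours at 1 end of the chain, and the other 6 were open in ESC alone. Spred2, another inhibitor, had 6 members at chr11:19962817-19996390 with 2 and 1, 2 and 2, and 3 and 3.

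Among the chromatin factors, Tet2, an enzyme that oxidises methylated cytosine, had 2 chains. The one that overlapped the gene had 5 members at chr3:133506299-133534568, with peaks at 3 and 1 at DAY3, 4 and 4 at DAY6 and 4 and 4 at DAY9. The one beside it had 7 members at chr3:133549512-133591230, with 1 and 1, 3 and 2, and 4 and 4. The strongest early member of both, at chr3:133524355-133525458, had folds of 10.9 and 9.45 at DAY3, 12.9 and 14.8 at DAY6, 13.1 and 12.8 at DAY9 and 9.67 and 9.27 in ESC. Jarid2, a partner of the Polycomb complex that methylates histone H3, had 4 members at chr13:44705046-44722759 with 2 and 1, 2 and 2, and 2 and 3. At Tet1, from the same enzyme family as Tet2, 1 of 4 members was open before ESC.

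The Myc family genes had chains far from the gene. The 4 members at chr15:62086805-62099267 lay inside the lncRNA gene Pvt1, 96444 bp from Myc, a cassette factor, with peaks at 0 and 1 at DAY3, 2 and 1 at DAY6 and 2 and 2 at DAY9. The member at chr15:62092461-62093409 had folds of 11.5 and 14.6 at DAY6 and 10.7 and 12.3 in ESC. The 6 members at chr12:12802374-12827998 lay 108095 bp from Mycn, with 2 and 2, 4 and 1, and 3 and 2. Here 1 member, at chr12:12809995-12811409, had peaks in both DAY3 libraries and 1 DAY6 library and none at DAY9, which was unusual among members open at DAY3 (5 of 214 were not open at DAY9).

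The 3 list genes that are not stem cell factors had chains of the same kind. Sox1, a factor of neural progenitors, had 5 members at chr8:12420541-12455888, with peaks at 0 and 0 at DAY3, 2 and 2 at DAY6 and 2 and 2 at DAY9. Snai2, a factor of mesenchymal cells, had 4 members at chr16:14673784-14686161, 19691 bp away, with the same counts in all 6 libraries. The chain near the actin gene Actb had 4 members at chr5:142911516-142936764 with 0 and 1, 3 and 2, and 3 and 4. A chain's nearest gene is thus not always a gene of the stem cell state, and no expression was analysed here.

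The largest chains lay on chromosome X. The first had 17 members at chrX:50549712-50632899, 15 of them inside Firre, an X-linked lncRNA gene, with Olfr1324 as the nearest protein-coding gene at 123218 bp. The second had 13 members at chrX:75728456-75770937, 12 of them inside the lncRNA gene 4933407K13Rik, at the locus known as Dxz4, with Pls3 nearest. Both loci are known for tandem repeats and for a role in the folding of the inactive X chromosome. How reads that map to several places were treated is not given in the sources used here, and the gaps in the numbering of the peaks leave it unknown whether a member without a peak had one before the lists were filtered.

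The DAY6 libraries stood apart at these loci. Members with a peak at Firre numbered 2 and 2 at DAY3, 9 and 1 at DAY6, 7 and 11 at DAY9, and 17 and 17 in ESC. At 4933407K13Rik they numbered 3 and 4, 11 and 0, 10 and 9, and 13 and 13. Of the 30 members of both chains, 20 had a peak in DAY6 replicate 1 and 1 in replicate 2. The other 24 members on X had 4 and 4 peaks in these libraries, and the 1944 autosomal members 35.6% and 31.9%. The difference was thus seen at the repeat loci and not in the other X members, and the share of all peaks on X was close in both libraries, at 2.73% and 2.62%. What set the libraries apart was not tested. Without chromosome X, 26.8% of members open at DAY6 became 27.3% of 1944. These 2 chains were followed by library after their values were seen.

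The other 10 of the 12 largest chains had 8 to 10 members and lay at Spry2, Mta3, Auts2, Esrrb, Tspan5, Bcas2, B4galt6, Zfp64, Nrip1 and Ank2. Their timing varied. At Tspan5, a tetraspanin, 4 of 8 members were open at DAY6 and 5 at DAY9, and at Nrip1, a corepressor of nuclear receptors, 4 and 4. At Bcas2, a splicing factor, and at Zfp64, a zinc-finger protein, 1 of 8 was open at DAY6 and 1 at DAY9. Over all 9 chains of 8 members, the number open at DAY9 ran from 1 to 6, the highest at Snx18, which fell outside the 12 by its shorter span.

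Chains at the extremes of timing lay near genes of several kinds. Apart from Prdm14 and Fgf4, chains with all members open at DAY9 lay near Trim2, where 3 of 5 were open at DAY3, and near Dsp, a desmosome protein of epithelia, where 1 of 5 was open at DAY3 and DAY6. Near Apela, a peptide hormone of early embryos and stem cells, 3 of 6 were open at DAY3 and 4 at DAY9, and near Tcf7l1, a repressor in Wnt signalling, likewise 3 and 4. Near Hpf1, a cofactor of PARP enzymes, 7 members had no peak in any of the 6 day libraries. These chains were singled out after their values were seen.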

How the data were processed

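The authors deposited 1 peak list per library, 10 in all, as text with 10 columns and no header. The submitters' processing notes name Bowtie2 2.3.2, MACS2 2.1.1, deepTools 2.3.6 and the build mm10, with no role or order; treatment of duplicates and of reads with several positions, transposase offset and filters are not given in the sources used here. In each list the deposited score equalled the whole part of the −log10 p-value after multiplication by 10, for all peaks of 9 lists and 99.99% of those of DAY6 replicate 2. The deposited fold is a linear ratio of the summit to local background, and the deposited −log10 q-value was not used. The numbers in the peak names run with gaps, and 58.2% to 75.9% of the numbers up to the highest are listed, so peaks appear to have been removed after numbering by a rule not given here. Score ranked peaks within a list, and folds are printed as deposited. Folds of different lists are set side by side as descriptions only.

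Peaks were merged where they overlapped by 1 bp or more, and a library had a region if 1 bp of a peak fell in it. Distal stem cell regions with gaps of 12.5 kb or less were chained. Gene ends came from RefSeq GRCm38.p6, which has the coordinates of mm10. Peaks do not carry read totals: the pileup behind a peak was recovered from fold and −log10 p-value, and the commonest expected pileup, a measure of relative depth, lay between 2.327 and 8.322. Replicates with a noise ratio under 2 at pileups of 100 to 200 counted as 1 sample. Tests were exact permutation tests over samples, two-sided, with no test over regions. The main p-values, both the smallest their tests allow, reflect the order of the samples by stage and the shared sign of their differences. They do not measure the spread between samples. The chain rule and the tests were tested on simulated data: 500 of 500 planted regions in chains of 5 were recovered, with 0 others. The planted regions were evenly spaced and kept apart from other peaks and gene ends. Recovery thus checks the code and not the rule in crowded or uneven lists. The members and gene lists were chosen with earlier results of these data known. Named chains are the first 12 by number of members, with ties broken by the longer span (6 of 9 chains of 8 members entered), and all whose nearest gene is on a list; those said to be singled out were added. Replicate numbers did not pair the samples. Promoter windows and microRNAs were matched by gene ID and position to RefSeq tables that are not complete. Alternatives were the peaks used, the overlap, the chaining gap, the members per chain, the gene-end distance and each library left out. Python 3.11.15, pandas 2.3.3, numpy 2.4.6 and scipy 1.17.1 were used.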

Additional observations from a re-analysis of the deposited data

How the results depend on the processing

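The rule sets the numbers of chains and members more than it sets their timing. There were 56 chains with 241 members in the highest-scoring 50% of each list, 51 with 221 in lists of equal length, 194 with 868 at a gap of 8 kb, 805 with 4006 at 20 kb, 1271 with 4542 from 3 members up and 168 with 978 from 5 up. Leaving out 1 library gave 422 to 1761 chains and 1995 to 9051 members, the high values without ESC replicate 1 (1517 and 7527) or ESC replicate 2 (1761 and 9051). Open shares of members at DAY3, DAY6 and DAY9 then ran from 7.41% to 14.0%, 18.3% to 35.9% and 30.2% to 49.0%, and before ESC from 31.7% to 49.7%. With 50% of the region to be covered they were 6.52%, 18.9% and 36.1%, and 37.2% before ESC, and with a peak in at least 1 library 16.8%, 40.4%, 54.3% and 57.4%. The highest-scoring 50% gave 9.13% at DAY3 and 45.2% at DAY9, and the 8 kb gap 45.6% at DAY9 and 46.5% before ESC. The difference from unchained regions was 2.88 to 5.73 points without 1 library and the trend 25.7 to 35.8 points. Both passed 0.05 in the exact tests only with 6 libraries separate (34.9 points, p = 0.0222, and 5.37 points, p = 0.03125, the latter added after seeing the data). The DAY3 difference turned to -1.54 points in lists of equal length, and the cause was not tested. Neighbours within chains shared their DAY9 state in 61.2% of pairs in lists of equal length and in 59.0% in chains of 5 or more, in 53.5% to 62.1% without 1 library, and in 41.7% when 4 timing classes were compared. With the replicate number as a block the trend was 34.9 points with an exact p = 0.0556. Same-numbered libraries did not deviate together (correlations of -0.00950 to 0.0221 over 10 pairs of stages). Depth is known only in relative terms, so a missing peak may be a peak below the threshold.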
